A study of Homo sapiens with 15 samples.

Results

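The 6 actin genes that make the conventional actin monomers, ACTC1, ACTA1, ACTA2, ACTG2, ACTB and ACTG1, were followed through cardiac differentiation of human embryonic stem cells. They were chosen by name, as the genes of the deposited count and TPM tables (TPM is a read count scaled for gene length and library size) whose Ensembl identifiers map to these symbols, and they are 6 of the 48777 genes listed. All 6 were found. What was asked of them was how much of the actin RNA each supplied on each day, and how far replicate libraries of a day differed.

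RNA was sequenced in bulk from H1, an embryonic stem cell line of human origin, at 5 time points: days 0, 4, 9, 11 and 20. Each day has 3 libraries that the labels call biological replicates, which makes 15. The cells were grown on the laminins LN-521 and LN-221, although the deposited sample table lists LN-521 alone for day 0. Day 0 cells were undifferentiated, and differentiation used medium with CHIR99021, an activator of Wnt signalling, and later IWP2, an inhibitor of Wnt secretion, on days that the protocols in the labels number differently. No genetic change was made, all libraries come from 1 line, and none of the libraries is an undifferentiated culture kept to a later day, so time in culture and differentiation cannot be told apart. The labels give day 9 where the methods list day 7. Libraries are named here by day and by the plate number in their label, and 1 day 9 library has no plate number.

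Total counts per library ran from 11990302 to 33469703 (median 22867831). The day 20 library labelled 2_3 stood apart. Its RNA integrity number was 6.1, against 8.8 or more in the others, and 48230 of the 48777 genes had at least 1 count in it, against 30886 to 39551 elsewhere. Results of day 20 are therefore also given without it. Libraries also differed in the share of reads mapped uniquely. It was 35% in library 3 of day 0, which had the lowest total, 46% in plate 2 of day 9, and at most 86%. Defining markers followed the labels for the stem cells: the summed TPM of 8 pluripotency markers was 6705 to 9903 on days 0 and 4, 2002 to 2440 on day 9 and 109 to 141 on day 20. Most of the day 9 sum was LIN28A, at 1464 to 1951 TPM. POU5F1 was at 61.4 to 115 TPM on day 9, against 931 to 1555 TPM on days 0 and 4. The summed TPM of 10 cardiomyocyte markers was 19.8 to 28.4 on days 0 and 4, 438 to 1591 on day 9, 5083 to 22978 on day 11 and 6103 to 25504 on day 20.

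Actin monomers polymerise into filaments. ACTB and ACTG1 encode the cytoplasmic actins of the cortex and stress fibres of nearly all cells, ACTC1 and ACTA1 the cardiac and skeletal muscle alpha-actins that build the thin filaments of the sarcomere, and ACTA2 and ACTG2 the smooth muscle actins. Embryonic heart muscle is known to make several muscle actins together, ACTA2 included, before the cardiac form dominates. Serum response factor (SRF), helped by myocardin and the actin-sensing MRTF proteins, binds CArG boxes in front of muscle and cytoskeletal genes.

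The genes lie on 6 chromosomes (GRCh38, GENCODE v44). ACTC1 (ENSG00000159251) spans chr15:34790107-34795589 and ACTA1 (ENSG00000143632) chr1:229430365-229434104, both on the minus strand. ACTA2 (ENSG00000107796) spans chr10:88935074-88991339 on the minus strand and ACTG2 (ENSG00000163017) chr2:73892314-73919865 on the plus strand. ACTB (ENSG00000075624) spans chr7:5526409-5563902 and ACTG1 (ENSG00000184009) chr17:81509413-81523847, both on the minus strand.

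The first 36 coding bases are shown because the amino end is where the isoforms differ most. They were read from GENCODE v44 transcripts on GRCh38, 5′ to 3′, and capitals mark the codons for aspartate and glutamate.
ACTC1: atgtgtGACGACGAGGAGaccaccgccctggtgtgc
ACTA1: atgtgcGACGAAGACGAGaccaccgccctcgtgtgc
ACTA2: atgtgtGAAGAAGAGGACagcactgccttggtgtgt
ACTG2: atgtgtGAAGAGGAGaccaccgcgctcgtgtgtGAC
ACTB: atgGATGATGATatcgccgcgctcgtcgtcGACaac
ACTG1: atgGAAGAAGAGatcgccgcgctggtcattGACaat
The muscle actins carry an added cysteine codon after the start, and ACTB opens with aspartate codons where ACTG1 has glutamate codons. The whole coding sequences, 1128 to 1134 bases long, were 81.7% to 91.2% identical between members. The closest pair was ACTB and ACTG1 at 91.2%, and the most distant was ACTA2 and ACTB at 81.7%. Despite this likeness, no stretch of 150 bases, the read length, in the canonical transcript of any of the 6 occurred letter for letter in a transcript of another gene. Shorter or inexact matches were not counted.

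The stretch of 250 bases before the start of transcription is shown for ACTC1, whose RNA rose, and for ACTG1, which shares its motif. The sequences are RefSeq's on GRCh38.p14, both on the minus strand, at chr15:34795550-34795799 and chr17:81512800-81513049. Capitals mark the CArG box and, in ACTC1, also sites 1 letter away from it. The box was taken as CC, a stretch of A or T, and GG. Sites 1 letter away are those with a single G or C in the A or T stretch. Changes in the flanking CC or GG were not searched.
ACTC1: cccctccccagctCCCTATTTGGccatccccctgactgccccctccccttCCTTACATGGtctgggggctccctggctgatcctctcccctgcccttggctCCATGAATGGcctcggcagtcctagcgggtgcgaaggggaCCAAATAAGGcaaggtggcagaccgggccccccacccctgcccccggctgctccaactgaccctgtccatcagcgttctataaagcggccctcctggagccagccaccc
ACTG1: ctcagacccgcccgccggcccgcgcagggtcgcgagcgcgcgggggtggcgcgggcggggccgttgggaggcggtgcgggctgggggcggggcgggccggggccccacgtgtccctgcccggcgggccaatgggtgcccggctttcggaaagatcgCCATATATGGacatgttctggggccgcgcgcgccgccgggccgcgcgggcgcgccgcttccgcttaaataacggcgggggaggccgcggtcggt
The exact box lay 109 to 100 bases before the start in ACTC1 and 94 to 85 bases before it in ACTG1. For the others, 30 bases around each box are shown, with the box in capitals.
ACTA1: tgcccaacacCCAAATATGGctcgagaagg
ACTG2, distal: gaaaaaaccaCCTTATATGGtaatattgct
ACTG2, proximal: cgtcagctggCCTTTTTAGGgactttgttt
ACTA2, 1 letter away: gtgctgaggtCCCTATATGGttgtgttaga
ACTA1 had 1 exact box, ACTG2 had 2, and ACTA2 had none but 2 sites that were 1 letter away. The motif reads the same on both strands, so each site was counted once. Of 35116 promoters of the same length, 1.16% held an exact box and 7.04% an exact box or a site 1 letter away by the same rule. ACTB is not among the promoters searched. These matches are letters in a window, and binding was not measured.

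The cytoplasmic actins were among the most abundant RNAs before differentiation and remained so, at lower ranks on day 20. ACTB was at 3472, 4162 and 2919 TPM in the 3 day 0 libraries and had rank 10 among all genes by mean TPM. On day 4 it was at 3393, 3138 and 3475 TPM in plates 1, 2 and 5, on day 9 at 2761 and 4013 TPM in plates 2 and 6_1 and at 2735 TPM in the unnumbered library, and on day 11 at 3618, 2851 and 3287 TPM in plates 2, 5 and 6. On day 20 it was at 1578, 706 and 1861 TPM in plates 2, 2_3 and 6_1. All 3 day 20 libraries lay below every library of the earlier days, and 2_3 was the lowest. By mean TPM ACTB had rank 48 and ACTG1 rank 38 on day 20.

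ACTG1, the gamma cytoplasmic actin, was at 3564, 3380 and 2797 TPM on day 0 and at 4044, 2827 and 3738 TPM on day 4. It was at 3599, 4997 and 3689 TPM on day 9 and at 3928, 2723 and 3049 TPM on day 11. On day 20 the 3 libraries were far apart, at 1793 TPM in plate 2, 296 TPM in 2_3 and 3191 TPM in plate 6_1. Plate 6_1 lay within the range of the earlier days, and the other 2 lay below it. The ratio of the highest to the lowest library was 10.8 on day 20 and 1.27 to 1.44 on the other days.

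ACTC1, the alpha-actin of heart muscle, was low at first and rose at each of 2 steps. It was at 10.8, 14.1 and 9.06 TPM on day 0 and at 9.06, 6.55 and 8.81 TPM on day 4. On day 9 it was at 171, 303 and 86.4 TPM in plate 2, plate 6_1 and the unnumbered library. On day 11 it reached 1953, 3924 and 1758 TPM in plates 2, 5 and 6, and on day 20 it was at 1495, 1913 and 419 TPM in plates 2, 2_3 and 6_1. Every day 9 library lay above every earlier one and below every day 11 library, while days 11 and 20 overlapped. By mean TPM ACTC1 went from rank 10220 of all genes on day 0 to rank 28 on day 11, and it had rank 55 on day 20.

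ACTA1, the skeletal muscle alpha-actin that heart muscle also makes, came later. It was at 14.8, 41.6 and 8.96 TPM on day 0, at 5.09, 6.62 and 15.6 TPM on day 4 and at 13.7, 9.92 and 6.43 TPM on day 9. On day 11 it was at 79.4, 354 and 108 TPM, and on day 20 at 217, 475 and 12.02 TPM. Days 0, 4 and 9 overlapped, all 3 day 11 libraries lay above them, and on day 20 plate 6_1 was back within the early range. The skeletal lineage regulator MYOD1 was at no more than 1.35 TPM outside 2_3, where it was at 8.35 TPM.

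ACTA2, the smooth muscle alpha-actin, had its highest values on day 11. It was at 0.715, 0.477 and 1.02 TPM on day 0 and at 1.16, 2.00 and 1.12 TPM on day 4. It was at 12.1, 49.3 and 4.83 TPM on day 9, at 269, 510 and 417 TPM on day 11 and at 42.6, 130 and 169 TPM on day 20. Each day 11 library lay above every library of the other days, and the day 9 libraries differed 10.2-fold among themselves.

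ACTG2, the smooth muscle gamma-actin of the gut, was the rarest member. It was under 2 TPM in every library of days 0 to 11, with 3 to 48 counts per library. On day 20 it was at 1.61 TPM in plate 2, 8.23 TPM in 2_3 and 28.9 TPM in plate 6_1, from 38, 123 and 491 counts. The 3 values lay above the day 11 values of 0.939, 1.52 and 1.13 TPM, by a narrow margin in plate 2.

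**Figure D1:**
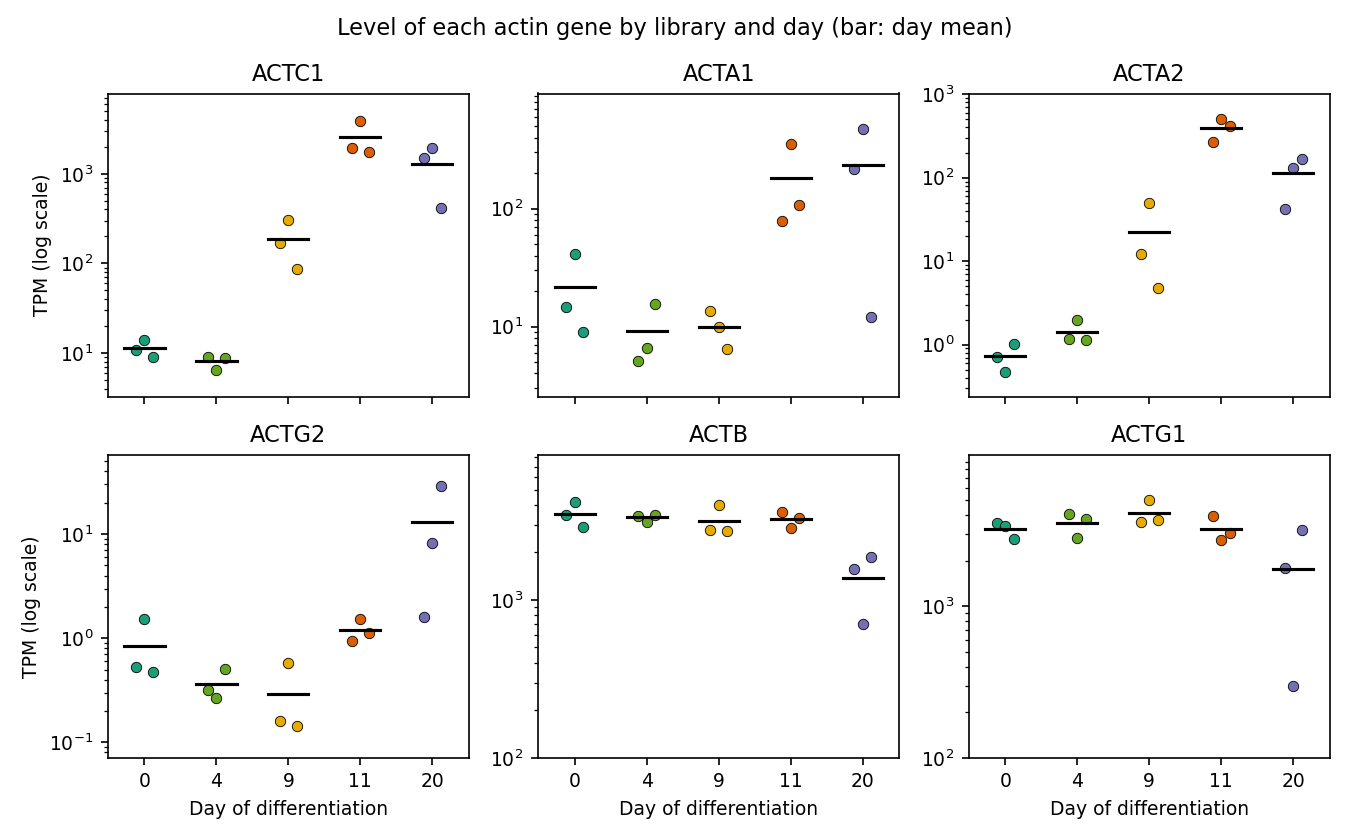
Deposited TPM of each actin gene (log axis) in each library, against the day of differentiation; points are libraries, coloured by day, and bars are means of 3 libraries. ACTC1 and ACTA2 stand higher on day 9 than on day 4 and higher again on day 11, while ACTB and ACTG1 keep their level until day 11 and spread on day 20.

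The order of the levels changed with the days. On day 0 the mean TPM was 3518 ± 623 (SD, n = 3) for ACTB and 3247 ± 401 for ACTG1, which did not differ beyond their spread, followed by ACTA1, ACTC1, ACTG2 and ACTA2, all below 50 TPM in every library. ACTA1 and ACTC1 overlapped, and so did ACTG2 and ACTA2. On day 4 ACTG1 at 3536 ± 633 and ACTB at 3335 ± 175 TPM overlapped, and the next were ACTA1 at 9.11 ± 5.69 and ACTC1 at 8.14 ± 1.38, which overlapped too. On day 9 ACTG1 was at 4095 ± 782 TPM and ACTB at 3170 ± 731, with overlapping ranges, and ACTC1 followed at 187 ± 109. On day 11 ACTB at 3252 ± 385, ACTG1 at 3233 ± 623 and ACTC1 at 2545 ± 1198 TPM overlapped. They were followed by ACTA2 at 399 ± 122, ACTA1 at 181 ± 151 and ACTG2 at 1.20 ± 0.294 TPM, where ACTA2 and ACTA1 overlapped. On day 20 ACTG1, ACTB and ACTC1 overlapped again, at 1760 ± 1448, 1382 ± 602 and 1276 ± 771 TPM. ACTA1 at 235 ± 232 TPM overlapped ACTC1 and ACTG1 through 2_3, and also ACTA2 at 114 ± 64.6 and ACTG2 at 12.9 ± 14.3 TPM, while ACTA2 and ACTG2 did not overlap.

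Each gene's share of actin RNA is its percentage of the summed TPM of the 6 genes in a library. Before differentiation the cytoplasmic actins made up 99.2% to 99.8% of it in the 6 libraries of days 0 and 4. Their share was 97.0%, 96.1% and 98.5% on day 9 in plate 2, plate 6_1 and the unnumbered library, and 76.6%, 53.8% and 73.5% on day 11 in plates 2, 5 and 6. On day 20 it was 65.7%, 28.4% and 88.9% in plates 2, 2_3 and 6_1. Every day 11 library lay below every earlier one, and the day 20 libraries lay on both sides of day 11.

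The striated muscle actins ACTC1 and ACTA1 together took 2.81%, 3.34% and 1.42% on day 9, 20.6%, 41.3% and 21.6% on day 11 and 33.4%, 67.7% and 7.58% on day 20, in the same order of libraries. Most of this was ACTC1, with 19.8%, 37.9% and 20.4% on day 11 and 29.2%, 54.2% and 7.37% on day 20. On TPM ACTC1 exceeded the cytoplasmic actins together in 2_3 alone. On raw counts it did so in plate 5 of day 11 too, with 48.3% of actin counts against 24.6% for ACTB and 21.5% for ACTG1. ACTA1 took 0.806%, 3.42% and 1.25% on day 11 and 4.23%, 13.5% and 0.212% on day 20. ACTA2 took 2.73%, 4.92% and 4.84% on day 11 and 0.830%, 3.68% and 2.97% on day 20, and ACTG2 no more than 0.509% in any library.

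**Figure D2:**
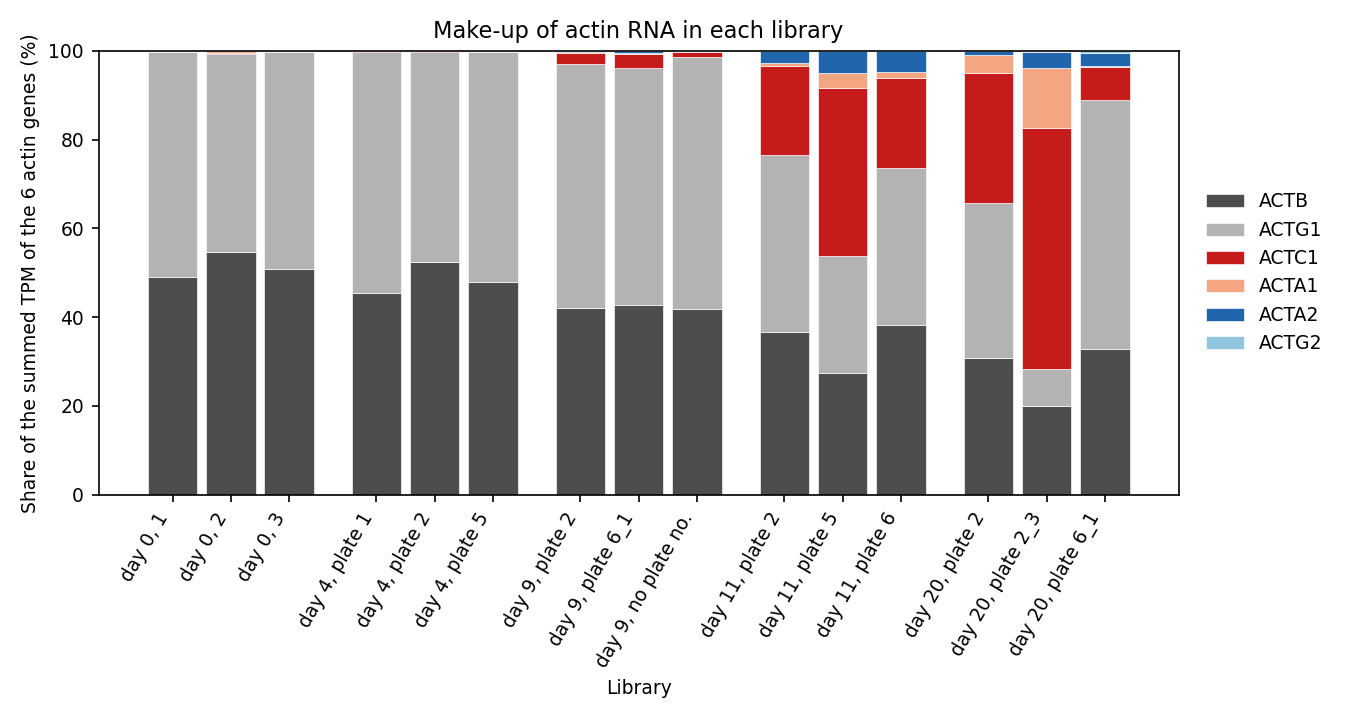
Share of each actin gene in the summed TPM of the 6 genes (percent) in each of the 15 libraries, ordered by day. The cytoplasmic actins (greys) fill nearly the whole bar on days 0 and 4, and ACTC1 (red) takes 19.8% to 37.9% on day 11 and 7.37% to 54.2% on day 20.

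Shares depend on the gene length used, which is not stated for the deposited TPM. Relative to ACTB, the length behind the TPM was 1.42 for ACTC1 and 0.459 for ACTA1, against 0.649 and 0.541 for the summed exons of GENCODE v44. For ACTG1 it was 0.914 and 0.920. The order of the levels within a library depends on the length too. With the GENCODE lengths ACTC1 stands higher against ACTB and ACTG1 than the TPM given above places it. With the GENCODE lengths the ACTC1 share on days 11 and 20 was 44.1 percentage points above that of days 0 and 4, and with raw counts it was 36.5 points above. Counting error was small beside these differences: the 95% Wilson interval of a member's share of the 6 genes' counts was at most 0.404 percentage points to either side, which covers counting error only.

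The 6 libraries of days 11 and 20 were set against the 6 of days 0 and 4, leaving out day 9. Each set pools libraries of 2 days, so its SD mixes the spread between days with that between replicates. The small p-values rest on this pooling, since an exact test of single days cannot fall below 0.1. For each member an exact two-sided permutation test of the share was made, and 0.00216 is the smallest p that 6 against 6 allows. ACTC1 had 28.1% ± 16.4 (SD, n = 6) against 0.142% ± 0.0290 (exact p = 0.00216), and ACTA2 3.33% ± 1.53 against 0.0164% ± 0.00932 (exact p = 0.00216). ACTB had 31.0% ± 6.63 against 50.1% ± 3.29 (exact p = 0.00216). In these 3 members the 2 sets of libraries did not overlap.

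For ACTG1 the shares were 33.5% ± 15.8 and 49.5% ± 3.43 (exact p = 0.0238), for ACTA1 3.90% ± 4.94 and 0.218% ± 0.171 (exact p = 0.00649) and for ACTG2 0.135% ± 0.203 and 0.00857% ± 0.00580 (exact p = 0.0325), with n = 6 in each set. In these 3 members the sets overlapped. The day 20 library of plate 6_1 had an ACTG1 share of 56.2%, the highest of the 12 libraries. The 6 tests are of shares that sum to the whole in each library, so they are not independent, and their p-values are unadjusted. Without 2_3, ACTC1 differed by 22.8 percentage points, ACTA2 by 3.24 and ACTB by −17.0 (each exact p = 0.00433), and ACTG2 missed the threshold (exact p = 0.0649). The summed TPM of the 6 genes was 6845 ± 790 on days 0 and 4 and 7194 ± 2797 on days 11 and 20. By day its mean was 6799, 6891, 7484, 9610 and 4778, and the 3 day 20 libraries, at 5126, 3528 and 5681, lay below all others.

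The log2 ratio of ACTC1 to ACTB counts within a library needs no scaling between libraries. It was −7.81, −7.69 and −7.82 on day 0, −8.04, −8.39 and −8.11 on day 4, and −3.50, −3.22 and −4.47 on day 9. On day 11 it was −0.38, 0.97 and −0.39, and on day 20 it was 0.43, 1.95 and −1.64. ACTC1 counts exceeded ACTB counts in plate 5 on day 11 and in plates 2 and 2_3 on day 20. The mean on days 11 and 20 was 0.16 ± 1.25 (SD, n = 6) against −7.98 ± 0.26 on days 0 and 4 (exact permutation p = 0.00216), without overlap.

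The cytoplasmic pair also shifted against each other. The ratio of ACTG1 to ACTB TPM was 1.03, 0.812 and 0.958 on day 0, 1.19, 0.901 and 1.08 on day 4, 1.30, 1.25 and 1.35 on day 9 and 1.09, 0.955 and 0.928 on day 11. It was higher in each day 9 library than in any library of days 0, 4 and 11. On day 20 it was 1.14 in plate 2, 0.419 in 2_3 and 1.71 in plate 6_1, the lowest and the highest values of the series.

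**Figure D3:**
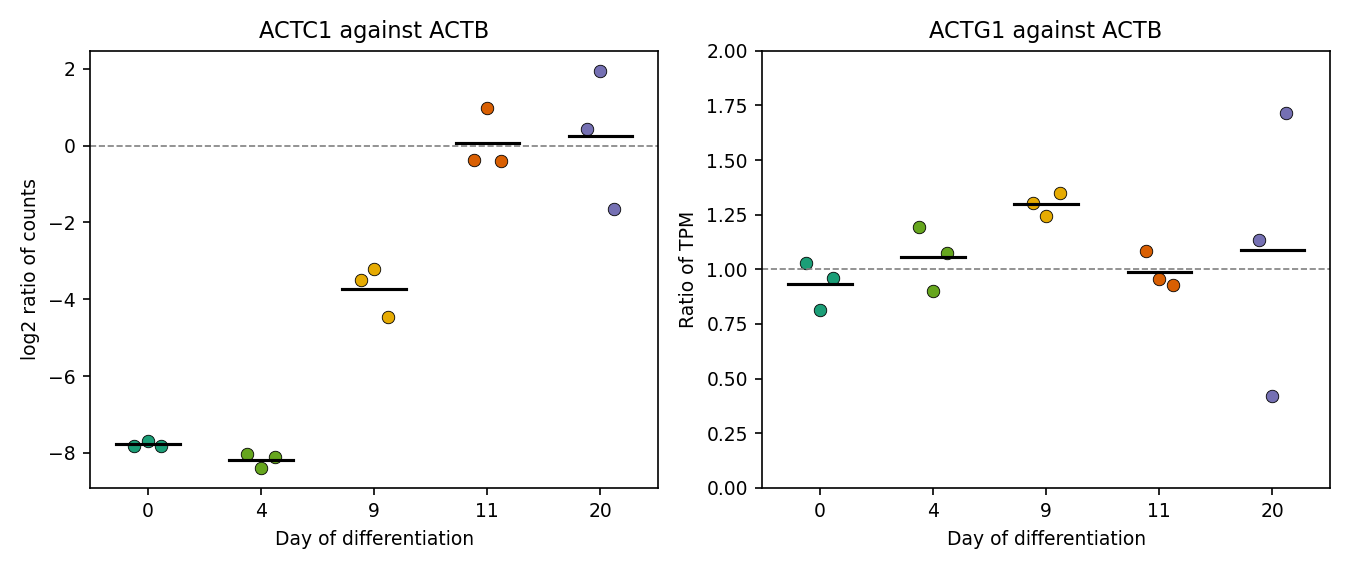
Left, log2 ratio of ACTC1 to ACTB counts; right, ratio of ACTG1 to ACTB TPM; both by day, with a point for each library and a bar for the mean of 3. The ACTC1 ratio goes from −8.39 to −7.69 on days 0 and 4 to −0.39 to 0.97 on day 11, and the ACTG1 ratio is widest on day 20, from 0.419 to 1.71.

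Counts were then compared between days with edgeR's quasi-likelihood test over all genes, two-sided, with Benjamini-Hochberg adjustment and a threshold of 0.05. Neighbouring comparisons share the libraries of a day, and fold changes are relative to the bulk of all genes. In bulk RNA more cells of a type and more RNA per cell cannot be told apart.

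From day 0 to day 4 none of the 6 actin genes passed the threshold, and neither did any gene (0.0% of 20964 tested). At an unadjusted p under 0.05 edgeR had 2 actin genes and 741 genes in all (3.53%), and DESeq2 and limma called no gene. ACTC1 had a log2 fold change of −0.54 ± 0.20 (SE, adjusted p = 0.885 by edgeR).

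From day 4 to day 9 ACTC1 and ACTA2 rose. These were 2 of the 5 members tested, where 49.0% of 21252 genes passed and 24.3% rose, a share of the same order. Both were higher in all 3 day 9 libraries on TPM, as were 28.4% of genes. ACTC1 had a log2 fold change of 4.51 ± 0.43 (SE, adjusted p = 0.000138 by edgeR), which is 22.7-fold. ACTA2 had 3.91 ± 0.82 (adjusted p = 0.00564 by edgeR), or 15.1-fold, and its adjusted p was 0.0703 with no filter on low counts. ACTA1, ACTB and ACTG1 had log2 fold changes of 0.16, −0.07 and 0.22 and did not pass, and ACTG2 was too low to be tested. Within the 3 sequencing lanes that both days share, the ACTC1 share was 2.496, 3.11 and 1.20 percentage points higher on day 9.

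From day 9 to day 11 both alpha-actins of striated muscle and ACTA2 rose. These were 3 of 6 members, where 2.39% of 20679 genes passed and 1.39% rose. ACTC1 had a log2 fold change of 3.73 ± 0.52 (SE, adjusted p = 0.0208 by edgeR), or 13.3-fold, ACTA1 4.11 ± 0.65 (adjusted p = 0.0281), or 17.2-fold, and ACTA2 4.18 ± 0.80 (adjusted p = 0.0476), or 18.1-fold. In each of these the day 11 libraries all lay above the day 9 libraries on TPM, as they did for 12.2% of genes, and this held for ACTG2 too.

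ACTG2 had 2.00 ± 0.53 (SE, adjusted p = 0.107 by edgeR), while ACTB at −0.01 ± 0.21 and ACTG1 at −0.39 ± 0.22 did not pass either. The calls hung on single libraries. No actin gene passed without the day 9 library of plate 2 or without the unnumbered one, and 1 passed without the day 11 library of plate 2. The ACTC1 log2 fold change was 3.72, 3.39 and 3.89 in these fits. The share of all genes that passed in them is not given here, so the loss cannot be read as particular to the actin genes. ACTA1 also missed the threshold without plate 6_1 of day 9 (adjusted p = 0.0580 by edgeR), and ACTA2 when any library but that one was left out (adjusted p of 0.0803 to 0.216 by edgeR). The ACTA2 call was also lost by library size alone, by upper-quartile scaling and with a mean of at least 1 CPM (adjusted p of 0.0550, 0.0506 and 0.0534 by edgeR). With no filter on low counts ACTC1, ACTA1 and ACTA2 had adjusted p-values of 0.0892, 0.147 and 0.234, and ACTG2 passed at 0.0337. Within the 3 lanes the ACTC1 share rose by 35.3, 17.2 and 18.5 percentage points.

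From day 11 to day 20 none of the 6 passed with edgeR, where 1.55% of 21398 genes did. At an unadjusted p under 0.05 there were 3, where 16.7% of genes were, and DESeq2 called 2 (ACTA2 and ACTG2) and limma called none. ACTA2 had a log2 fold change of −1.94 ± 0.52 (SE, adjusted p = 0.108 by edgeR), ACTG2 3.37 ± 0.96 (adjusted p = 0.129), ACTB −1.29 ± 0.53 (adjusted p = 0.273) and ACTC1 −1.19 ± 0.59 (adjusted p = 0.372). ACTA2 and ACTB were lower in all 3 day 20 libraries than in any day 11 library, as were 7.44% of genes. ACTA1 was at 0.11 ± 0.98 and ACTG1 at −0.88 ± 0.80, and the 2 days overlapped. Without 2_3 none of the 6 passed either, and ACTA1 was at −0.65, ACTB at −0.91 and ACTC1 at −1.41.

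The ACTC1 share went in opposite directions within lanes from day 11 to day 20. It was 30.5 percentage points lower on day 20 in the lane of plate 6_1, and 33.8 and 9.33 points higher in the lanes of 2_3 and plate 2. The mean difference was 4.23 points, and −7.76 points without 2_3.

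Over the whole course, day 20 against day 0, ACTC1, ACTA2 and ACTG2 were higher, 3 of 6 members, where 27.4% of 21988 genes passed and 16.1% were higher. The log2 fold changes were 6.50 ± 0.60 (SE, adjusted p = 0.000475 by edgeR) for ACTC1, 7.05 ± 0.68 (adjusted p = 0.000538) for ACTA2 and 3.74 ± 1.04 (adjusted p = 0.0306) for ACTG2. Without 2_3 they were 6.28, 7.12 and 4.04, and all 3 passed. The ACTG2 call was lost without plate 6_1 of day 20 (1.97, adjusted p = 0.119 by edgeR) and without any 1 of the day 0 libraries. By edgeR ACTA1 had 3.05 ± 1.03 (adjusted p = 0.0589) and passed without plate 6_1 (3.53, adjusted p = 0.00683). By edgeR ACTB had −1.52 ± 0.50 (adjusted p = 0.0561) and passed without 2_3 (−1.14, adjusted p = 0.00942) and without plate 6_1 (−1.90, adjusted p = 0.0499). ACTA1 also passed by DESeq2 (adjusted p = 0.00806) and with all 15 libraries in one edgeR fit (adjusted p = 0.0160). ACTB also passed by DESeq2 (adjusted p = 0.0200), by limma with either pseudocount (adjusted p of 0.0276 and 0.0281), and in edgeR with all 15 libraries (0.00394), with either other scaling (0.0226 and 0.0252) and with a mean of at least 1 CPM (0.0459). ACTG1 had −1.01 ± 0.77 (adjusted p = 0.375 by edgeR).

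**Figure D4:**
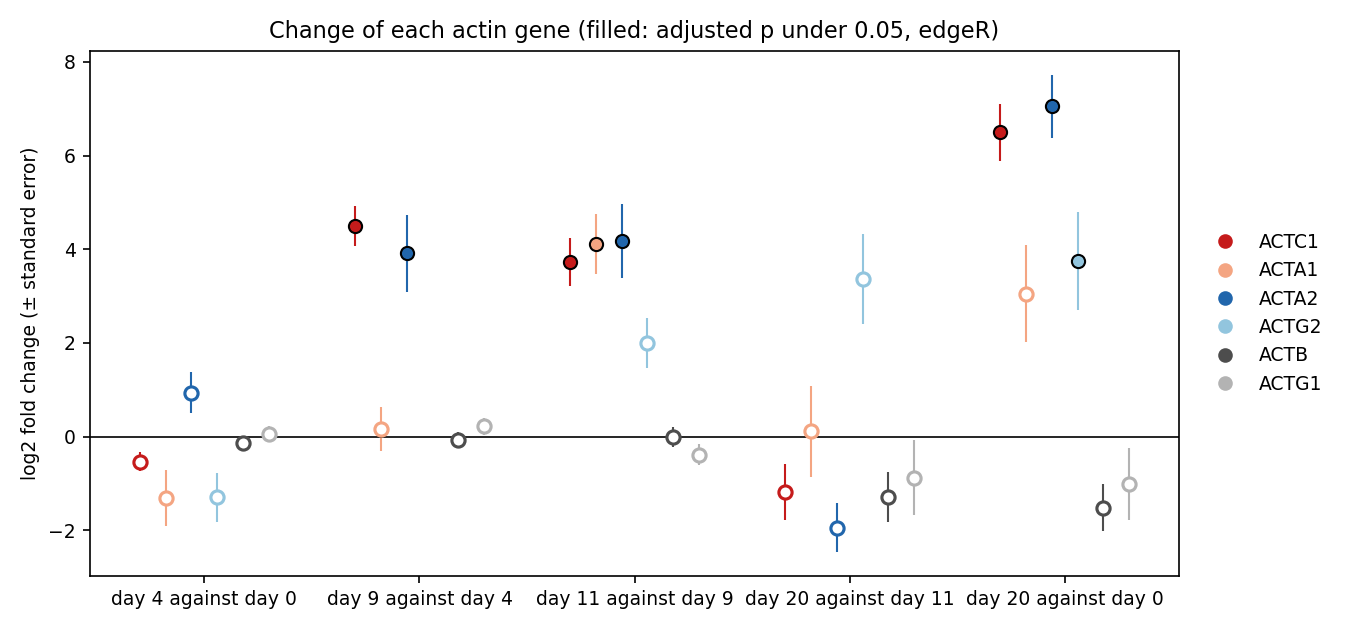
edgeR log2 fold change of each actin gene, with its standard error, in the 5 comparisons of days; filled points passed an adjusted p of 0.05. The filled points are ACTC1 and ACTA2 from day 4 to 9, ACTC1, ACTA1 and ACTA2 from day 9 to 11, and ACTC1, ACTA2 and ACTG2 from day 0 to 20.

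The genes that work with actin were taken from 6 lists. Over all genes 24.3% rose and 24.7% fell from day 4 to day 9, 1.39% rose from day 9 to day 11, and 16.1% were higher and 11.3% lower on day 20 than on day 0. The calls of the listed genes also hung on single libraries, and the share of all genes in those reduced fits is not given here. From day 9 to day 11 the 12 calls over all 6 lists went to 0 without plate 2 or the unnumbered library of day 9 and to 4 without plate 2 of day 11, and on day 20 against day 0 the 35 calls went to 23 without library 3 of day 0. Of the 16 genes of the sarcomere thin filament, 8 of the 15 tested rose and 2 fell from day 4 to day 9, 7 of 15 rose and none fell from day 9 to day 11, and 12 of 16 rose and none fell from day 0 to day 20. Their median log2 fold changes were 1.93, 2.00 and 5.07, against 0.01, 0.00 and 0.11 over all genes. From day 9 to day 11 ACTN2, which anchors thin filaments at the Z-disc, had 4.94 ± 0.76 (SE, adjusted p = 0.0267 by edgeR). TNNT2, the cardiac troponin T, had 4.35 ± 0.81 (adjusted p = 0.0444 by edgeR), and TNNC1, troponin C, had 3.39 ± 0.49 (adjusted p = 0.0228 by edgeR). From day 0 to day 20 LMOD2, which elongates thin filaments, had 9.41 ± 1.10 (adjusted p = 0.00104 by edgeR), from 0.163 to 146 TPM. From day 11 to day 20 none of 16 passed with edgeR, where 1.55% of all genes did. By edgeR 7 had an unadjusted p under 0.05, where 16.7% of all genes did. DESeq2 called 3 and limma none.

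Of the genes of smooth muscle contraction, 6 of the 11 tested rose and 2 fell from day 4 to day 9, 4 of 11 rose from day 9 to day 11 and 7 rose and 1 fell from day 0 to day 20. Over all genes these shares were 24.3% and 24.7%, 1.39%, and 16.1% and 11.3%. MYL9, a regulatory myosin light chain, rose by 2.29 ± 0.26 (SE, adjusted p = 0.000297 by edgeR) from day 4 to day 9, and TAGLN, transgelin, by 2.22 ± 0.31 (adjusted p = 0.000798 by edgeR). From day 9 to day 11 LMOD1, the smooth muscle leiomodin, rose by 3.07 ± 0.52 (adjusted p = 0.0330 by edgeR). MYH11, the smooth muscle myosin that defines the mature cell, passed in the same step (2.25 ± 0.43, adjusted p = 0.0444 by edgeR) but reached a mean of only 3.81 ± 2.12 TPM on day 11, where ACTA2 was at 399 TPM. SYNPO2 was the only member to pass from day 11 to day 20, at 3.33 ± 0.62 (adjusted p = 0.0469 by edgeR). That call and the CFL2 call of the same step, the only 2 over all 6 lists, were both lost without any 1 of the day 11 libraries and without plate 2 of day 20.

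The partners of cytoplasmic actin moved in both directions. Of 16 genes of filament turnover, 6 rose and 6 fell from day 4 to day 9, and 2 rose and 4 fell from day 0 to day 20. Over all genes 24.3% rose and 24.7% fell in the first of these comparisons, and 16.1% rose and 11.3% fell in the other. TMSB4X, which holds actin monomers in reserve, fell by 1.71 on the log2 scale (SE 0.15, adjusted p = 4.41e-05 by edgeR), from 1305 to 396 TPM between days 4 and 9. CFL2, the muscle cofilin, rose by 1.23 ± 0.14 (adjusted p = 0.000202 by edgeR) in that step and by 1.51 ± 0.26 (adjusted p = 0.0371 by edgeR) from day 11 to day 20. GSN, the severing protein gelsolin, rose by 3.14 ± 0.58 (adjusted p = 0.00609 by edgeR) from day 0 to day 20. From day 9 to day 11 none of the 16 passed with edgeR, DESeq2 or limma, and 2 had an unadjusted p under 0.05. The share of all genes at that unadjusted level is not given here for this step.

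Of the 9 subunits of the Arp2/3 complex, which starts branched filaments, 3 fell and none rose from day 4 to day 9. ARPC1B fell by 0.52 on the log2 scale (SE 0.13, adjusted p = 0.00982 by edgeR). Of 18 genes that fold and process actin, 3 rose and 4 fell in that step, and 4 fell and none rose from day 0 to day 20. The latter included CCT5 and CCT3, subunits of the chaperonin that folds actin, which fell by 1.66 (adjusted p = 0.00506 by edgeR) and 1.32 (adjusted p = 0.0173 by edgeR) on the log2 scale. Of the genes of actin-responsive transcription, 4 of the 11 tested rose and 3 fell from day 4 to day 9, and 5 of 12 rose and none fell from day 0 to day 20. Among them MYOCD, myocardin, rose by 6.00 ± 0.32 (adjusted p = 7.02e-06 by edgeR) from day 4 to day 9, from 0.346 to 21.3 TPM. It was at 86.1, 214 and 46.4 TPM on day 11 and at 158, 245 and 39.9 TPM on day 20. ABRA, a striated muscle activator of MRTF signalling, was the only one of 12 past the threshold from day 9 to day 11 (6.43 ± 0.71, adjusted p = 0.0147 by edgeR). For these 3 lists too, the shares over all genes were 24.3% rising and 24.7% falling from day 4 to day 9. They were 1.39% rising from day 9 to day 11, and 16.1% higher and 11.3% lower on day 20 than on day 0.

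The replicates of days 11 and 20 differed in other cell type markers as well as in actin. On day 11 the cardiomyocyte markers summed to 6735, 22978 and 5083 TPM in plates 2, 5 and 6, and plate 5 also had the highest ACTC1, ACTA1 and ACTA2. The fibroblast and mesenchymal markers summed to 3429, 1254 and 7372 TPM and were lowest in plate 5. On day 20 the cardiomyocyte markers summed to 25159, 25504 and 6103 TPM in plates 2, 2_3 and 6_1.

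The fibroblast markers were at 3211, 1219 and 24486 TPM on day 20, with COL3A1, a fibrillar collagen, at 17006 TPM in plate 6_1. The endoderm and liver markers were at 17550, 697 and 21110 TPM, led by AFP, alpha-fetoprotein, at 13772, 516 and 14210 TPM. Plate 6_1, with the lowest striated share of actin, thus had the highest collagen and the lowest cardiomyocyte sum of the day. Library 2_3 had the highest striated share and the lowest fibroblast and endoderm sums, and the lowest RNA integrity. Whether any of these had a part in the actin values was not tested.

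The 6 smooth muscle defining markers summed to 147 to 326 TPM on day 11 and 193 to 230 TPM on day 20. Single members varied more than the sum on day 20, as MYH11 was at 1.56, 12.5 and 0.863 TPM in plates 2, 2_3 and 6_1. The skeletal muscle regulators differed between the libraries with high ACTA1. In plate 5 of day 11 MYOD1 was at 0.214 TPM and MYOG at 1.26 TPM, and in plate 2 of day 20 they were at 0 and 1.05 TPM. In 2_3, where ACTA1 was highest, MYOD1, MYOG, MYF5 and MYF6 were at 8.35, 5.51, 2.98 and 2.96 TPM, and their part in the ACTA1 value was not tested. That library had at least 1 count for 48230 genes. Some low markers of other cell types were higher in it too, and others were not. In plates 2, 2_3 and 6_1 of day 20 SOX2 was at 0.320, 9.23 and 1.34 TPM and KCNMB1 at 0.106, 5.24 and 0.517 TPM. POU5F1, at 2.29, 7.70 and 9.98 TPM, was highest in plate 6_1 instead. CDH5, at 8.04, 5.89 and 3.35 TPM, and SOX17, at 10.2, 8.49 and 4.99 TPM, were highest in plate 2. The skeletal list summed to 74.3 to 377 TPM on day 11 and 155 to 1155 TPM on day 20, mostly through CKM, the muscle creatine kinase that heart also makes. Endothelial markers summed to 447 to 688 TPM on day 11 and 184 to 632 TPM on day 20, but already to 264 to 418 TPM on day 0. In plate 6 of day 11 KDR made up 532 of the 684 TPM. PECAM1 and CDH5 were at 0.618 and 1.44 TPM there, and at 12.7 and 52.5 TPM in plate 5.

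**Figure D5:**
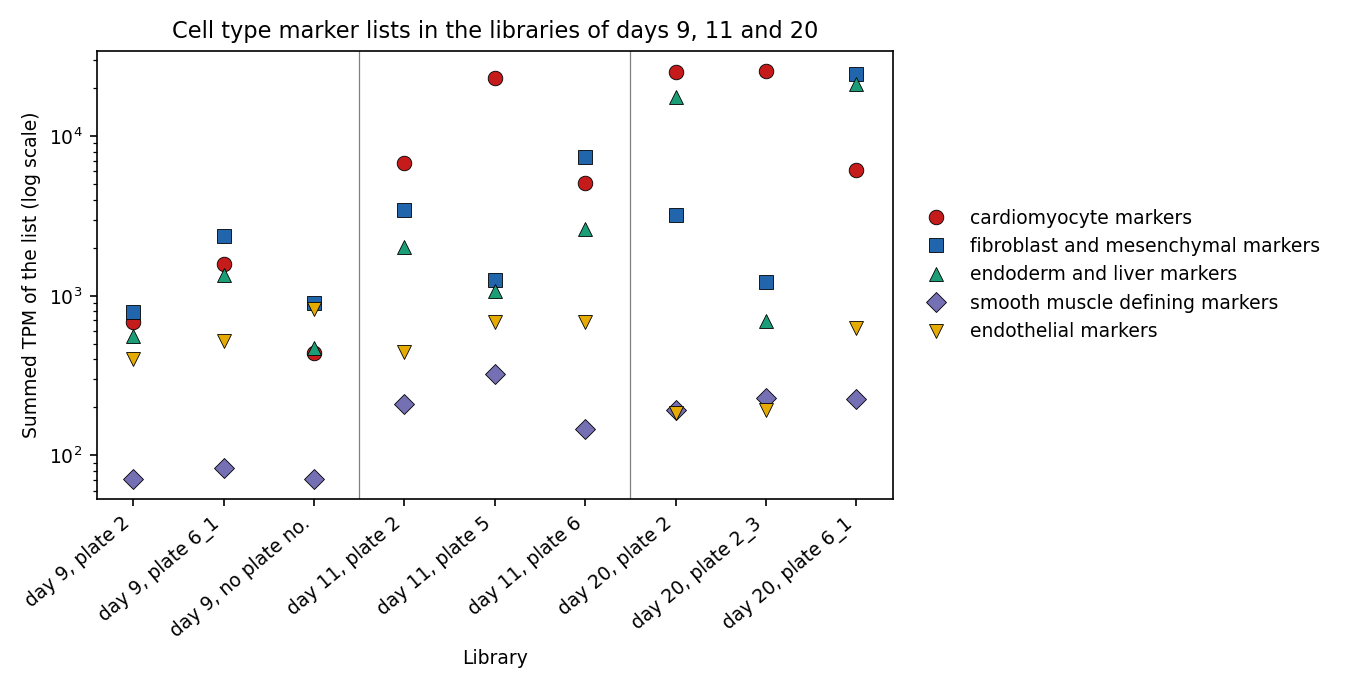
Summed TPM (log axis) of 5 marker lists in each library of days 9, 11 and 20. On day 20, plate 6_1 is lowest in cardiomyocyte markers (6103 TPM) and highest in fibroblast markers (24486 TPM), and 2_3 is lowest in endoderm markers (697 TPM).

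The genes whose log2(TPM + 1) over the 15 libraries was most like each member's are given as a description, among 14660 genes with a mean of at least 10 TPM on a day. Libraries of a day are not independent points here. For ACTC1 they were UNC45B, a chaperone of muscle myosin (Pearson r = 0.986), TPM1, the tropomyosin of the thin filament (0.983), and MEF2C, a cardiac transcription factor (0.983). For ACTA2 they were ZC2HC1A (0.977), SLIT2 (0.972) and PRSS23 (0.968), for ACTA1 MIR7151 (0.930), SIK3 (0.928) and ENSG00000278960 (0.923), and for ACTG2 KRT16 (0.945), HSBP1L1 (0.943) and OGFRL1 (0.930).

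For ACTB they were SMARCD2 (0.967), NONO (0.962) and SRSF9 (0.954), and for ACTG1 RPS21 (0.963), IMPDH2 (0.959) and SMARCD2 (0.947). Within the family ACTC1 and ACTA2 had r = 0.955, ACTB and ACTG1 0.911 and ACTC1 and ACTA1 0.772, and ACTC1 and ACTB −0.456.

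Reads of near-identical actin copies, such as the POTE fusion genes and actin pseudogenes, could be split from the members by the authors' counting. The 17 copies listed summed to 0.245% to 0.437% of actin TPM in 14 libraries and to 1.70% in 2_3. ACTA2 shares exon bases with the antisense gene ACTA2-AS1 over 29.1% of its exon length, ACTA1 with ENSG00000290037 over 16.6% and ACTC1 with GJD2-DT over 15.7%, each on the opposite strand. ACTA2 also shares 7.13% with ENSG00000286116 on its own strand, which strand cannot resolve. The library kit marks strand, but whether counting used it is not given in the sources used here, so reads of a gene and of its antisense partner may be counted together.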

How the data were processed

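The members and gene lists were chosen with earlier results of these data known. ACTC1, ACTN2 and TNNT2 belong to a signature that the authors picked from time-course bulk RNA as high on day 11 and separating it from day 9. Their rise from day 9 to day 11 is therefore not independent of that choice. The authors aligned paired reads of ribosome-depleted RNA to GRCh38 (Ensembl release 79) with STAR 2.5.2b and deposited raw counts per gene from featureCounts 1.5.1. The authors also deposited TPM, for which the sources used here do not state the gene length. Their deposited sample table gives RNA integrity as a score and, as a fraction, the reads mapped uniquely. Symbols and exon lengths come from GENCODE 44.

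Counts were compared with edgeR 4.0.16 (R 4.3.3; genes kept by filterByExpr at a count of 10 and a total of 15; TMM scaling; robust quasi-likelihood test) on the 6 libraries of the 2 days, and p-values were adjusted by Benjamini-Hochberg across every tested gene. Shares of actin TPM were compared by exact two-sided permutation tests (scipy 1.17.1), for which 0.1 is the smallest p of 3 libraries against 3. Alternatives used DESeq2 1.42.0, limma 3.58.1 on log2 TPM, other scalings, filters, lengths and blocks, and leaving out each library. The code was tested on simulated data. The p-values measure the spread between libraries, since the labels do not say how cultures were separated. The partner genes named are up to 4 per list and comparison, with the largest changes past the threshold. MYOD1, MYOG, MYF5, MYF6, CKM, COL3A1 and AFP were named after their values were seen. So were SOX2, POU5F1, LIN28A, KCNMB1, KDR, PECAM1, CDH5 and SOX17.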

Additional observations from a re-analysis of the deposited data

How the results depend on the processing

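Of 432 refits of a member's log2 fold change, 370 kept its direction and its side of the threshold, as did 353 of 372 recomputed shares. The calls of ACTC1 and ACTA2 on day 20 against day 0 held in every refit run. With no filter on low counts, 1 actin gene passed from day 4 to day 9 and 1 from day 9 to day 11, and 1 of the listed genes (none otherwise) from day 0 to day 4. With DESeq2, 2 actin and 5 listed genes passed from day 11 to day 20 (0 and 2 by edgeR), 20 listed genes from day 9 to day 11 (12 by edgeR) and 5 actin genes on day 20 against day 0 (3 by edgeR). With all 15 libraries in one fit, 27 listed genes passed from day 4 to day 9 (47 in the fit of 6), 2 actin and 13 listed genes from day 11 to day 20, and 5 actin and 53 listed genes (35 in the fit of 6) on day 20 against day 0. From day 11 to day 20 a mean of at least 1 CPM and upper-quartile scaling each left 1 listed gene. The shares of all genes past the threshold in these refits are not given here, so their counts lack a background.

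The plate numbers do not say that libraries shared a culture. Correlations over genes were taken between same-numbered libraries of 2 days, on each library's deviation from the mean of its day. They were 0.102 and 0.301 from day 9 to day 11 and −0.144 to 0.347 from day 11 to day 20. With the plate number as replicate block, 3 actin genes passed from day 9 to day 11 and 0 actin and 0 listed genes from day 11 to day 20, and the ACTG1 share was 1.30 percentage points higher on day 20 than on day 11. With the sequencing lane as a block the counts of actin genes were unchanged where it could be fitted.

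Log2 fold changes that changed sign were those near 0. For ACTB they were 0.016 by library size alone from day 4 to day 9, and from day 9 to day 11 0.011 with all 15 libraries, 0.054 by limma with either pseudocount and 0.016 with the replicate block. For ACTA1 from day 11 to day 20 they were −0.092 by DESeq2, −0.43 and −0.40 by limma, −0.12 with no filter and −0.44 with the replicate block. Leaving out 1 library gave −0.065 to 0.20 for ACTG1 from day 0 to day 4, −0.16 to 0.78 for ACTA1 and −0.18 to 0.029 for ACTB from day 4 to day 9, −0.092 to 0.13 for ACTB from day 9 to day 11 and −0.65 to 0.98 for ACTA1 from day 11 to day 20. It gave 0 to 3 actin genes from day 9 to day 11, and 0 to 14, 0 to 4 and 23 to 42 listed genes from day 9 to day 11, day 11 to day 20 and day 0 to day 20. The 0 came without plate 2 or the unnumbered library of day 9 in the first, and without any day 11 library or plate 2 of day 20 in the second, where the 4 came without plate 6_1. The 23 came without library 3 of day 0.

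The difference in the ACTC1 share from day 11 to day 20 ran from −7.76 to 15.7 percentage points when 1 library was left out, that of ACTG1 from −12.2 to 11.7, and that of ACTA1 from day 4 to day 9 from −0.0294 to 0.0481. The ACTG1 difference was −0.668 on TPM, 0.514 on raw counts and 1.23 with GENCODE lengths. The log2 ratio of ACTC1 to ACTB differed by −0.67 to 1.12 from day 11 to day 20. For ACTG2 on days 11 and 20 against days 0 and 4, the difference was 0.139 points with GENCODE lengths and 0.0518 to 0.152 with 1 library left out, past the threshold in some of these and not in others. The summed actin TPM differed by −441 to 546 from day 0 to day 4 (−148 on the CPM scale), by −351 to 1074 from day 4 to day 9 and by −285 to 1083 between days 11 and 20 and days 0 and 4. The causes were not tested.

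Depth limits ACTG2, which had 3 to 48 counts per library before day 20, and 3 libraries a day limit the rest: an exact test of 2 days cannot fall below 0.1. Day 20 holds libraries that differ in RNA integrity and in markers of other cell types.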
